A study of Drosophila melanogaster with 6 samples.

Results

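The 10 genes that encode the nicotinic acetylcholine receptor (nAChR) subunits of the fly were measured in RNA from male heads. They were chosen by symbol, 7 alpha subunits and 3 beta subunits, with no rule on their values, but with earlier results of these data known. They make up 10 of the 17807 genes in the count table. All 10 were among the 10696 genes that passed the filter on low counts. Heads of pum kd flies, in which RNAi against pumilio (pum) was driven in adults, were compared with heads of control flies, with 3 libraries per genotype and 10 pooled heads per library. The pum kd flies carried the hairpin HMS01564 under UAS control at attP2, and the control flies carried a VALIUM20 hairpin at the same site against mCherry, a sequence absent from the fly genome. Both genotypes also carried the driver esg-Gal4 with the reporter UAS-2xYFP, the temperature-sensitive repressor tub-Gal80ts and Su(H)GBE-Gal80, which blocks the driver in enteroblasts, over an X chromosome background written as w1118 with y1, sc*, v1 and sev21. Flies were reared at 18 °C and the transgenes were switched on at 29 °C. The driver acts in intestinal stem cells and in the corpus allatum, the gland that makes juvenile hormone, and not in head neurons at large, so most of the cells behind these values were not aimed at by the RNAi. The paper cites work in which esg-Gal4 was also active in a few adult brain neurons. It leaves the extent of this with Su(H)GBE-Gal80 to later study. The flies were about a week old when the sleep assays that preceded freezing began, and whether the pools came from separate rearings is not given in the sources used here, so the p-values measure the spread between these pools of heads.

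Nicotinic receptors are channels of 5 subunits around a pore that opens to cations when acetylcholine binds, and they belong to the Cys-loop family together with the GABA-gated, glutamate-gated and histamine-gated chloride channels. Acetylcholine is the main fast excitatory transmitter of the insect brain, and these channels carry most of its fast signal. Alpha subunits are told from beta subunits by a pair of adjacent cysteines at the transmitter binding site, and a receptor can be built from 1 kind of subunit or from several. The family is known for its place in insecticide action, since neonicotinoids and spinosyns act on these channels, and one member, nAChRalpha4, is known from the sleep mutant redeye.

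The gene counts summed to 33258537 to 39377789 per library in pum kd heads and to 33445243 to 34300972 in control heads. Values are given as CPM, the count of a gene relative to the TMM-scaled sum of its library, and in every list of 3 the libraries stand in the order of their replicate numbers. The lowest count of a subunit in any library was 793 and the highest was 14061, so that the counting error was at most 3.55% of a value. Photoreceptor marker genes, which define head tissue, summed to 69866 to 83648 CPM in pum kd heads and to 73710 to 78124 CPM in control heads. The targeted gene, pum, had 176, 192 and 228 CPM in pum kd heads, against 346, 168 and 270 CPM in control heads. Its groups overlapped, with a log2 fold change of -0.40 ± 0.25 (SE), and edgeR's quasi-likelihood test gave it an adjusted p of 0.993 (Benjamini-Hochberg, over all genes tested). The difference in pum between the genotypes was not larger than the spread of the libraries.

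Every subunit had a lower fitted level in pum kd heads, and none passed the test. In edgeR's quasi-likelihood test, adjusted over all genes tested, 0 of the 10 subunits were called at an adjusted p under 0.05, against 0.103% of the 10696 genes (11 genes, of which 2, or 0.0187% of genes, were lower in pum kd heads and 9 were higher), and the adjusted p was 0.993 for each subunit. Without adjustment 0 of 10 had a p under 0.05, against 4.95% of genes, and 3 of 10 had a p under 0.10, against 9.1% of genes. DESeq2 also called 0 of 10, against 74 of the 13234 genes it tested. In that test 2 of 10 had an unadjusted p under 0.05, against 5.30% of genes. The fitted log2 fold changes lay between -0.56 and -0.17 with a median of -0.33, whereas the median over all genes tested was -0.03. A fitted level below that of control heads was seen for 10 of 10 subunits and for 54.4% of genes, and 14.8% of genes had a log2 fold change below the median of the subunits. The subunits were read in the same 6 libraries, so that 10 genes on one side are not 10 separate observations. When the libraries were divided into the 2 batches that the authors' normalized values go with (control replicates 1 and 2 with pum kd replicate 1, and the rest), the level was lower in pum kd heads within both batches for 9 of 10 subunits, with log2 ratios of -0.81 to -0.10 within the first and -0.57 to -0.23 within the second. The exception was nAChRalpha2, at -0.34 within the first batch and 0.092 within the second. A batch held 1 library of one genotype, so these values have no test. The 6 libraries are bulk RNA, in which fewer cells that express a gene and less RNA of it per cell cannot be told apart.

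**Figure D1:**
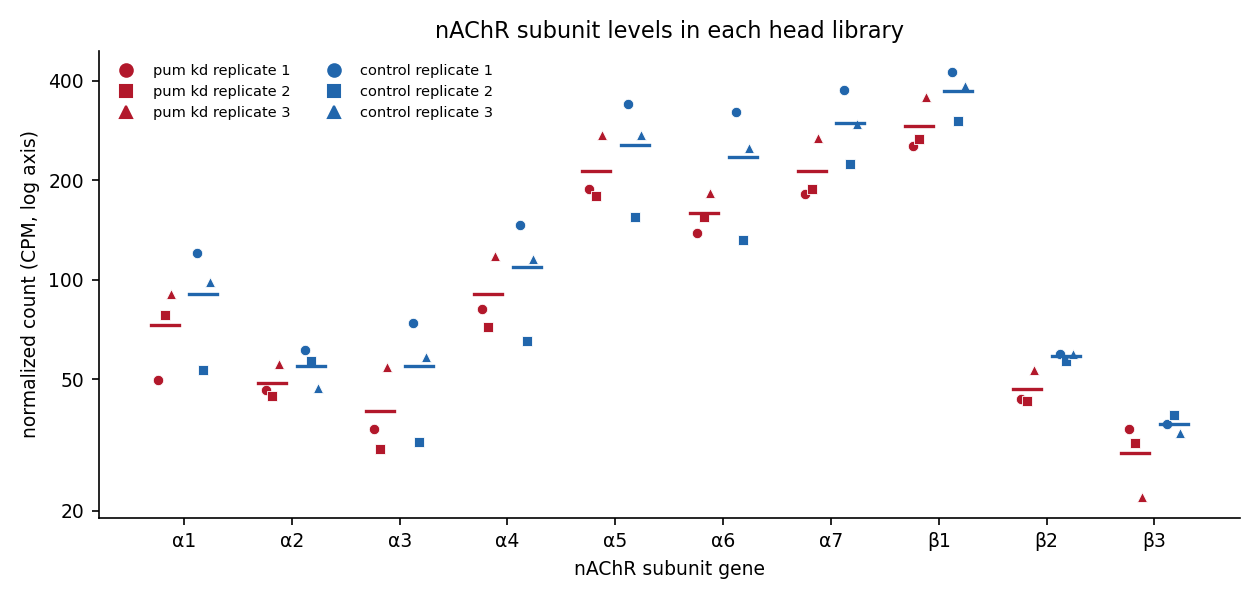
Level of each nAChR subunit gene in CPM (log axis), with 3 pum kd libraries to the left of 3 control libraries for each gene; points are libraries (circle, square and triangle for replicates 1, 2 and 3) and bars are group means. The points of both genotypes overlap for all subunits but nAChRbeta2, and control replicate 1 is the highest library for 8 of 10 subunits.

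Among the alpha subunits, nAChRalpha1, nAChRalpha2 and nAChRalpha3 are classical alpha subunits, of which nAChRalpha1 and nAChRalpha2 are known as parts of receptors that bind neonicotinoids. nAChRalpha1 (FBgn0000036) lies on the minus strand of chromosome 3R from 24393896 to 24457157. It had 49.6, 78.1 and 90.2 CPM in pum kd heads, against 120.5, 53.3 and 98.4 CPM in control heads. The lowest pum kd library and control replicate 2 were close to each other and the genotypes overlapped, with a log2 fold change of -0.32 (95% interval -0.98 to 0.34). It was -0.06 without control replicate 1, -0.07 without pum kd replicate 1 and -0.51 without pum kd replicate 3. nAChRalpha2 (FBgn0000039), on the plus strand of 3R from 24485428 to 24491147, had 46.4, 44.5 and 55.5 CPM in pum kd heads, against 61.1, 56.6 and 46.9 CPM in control heads. It was the steadiest alpha subunit, its highest value within a genotype being 1.25 times the lowest in pum kd heads and 1.30 times the lowest in control heads, and its log2 fold change was -0.17 (95% interval -0.55 to 0.21). nAChRalpha3 (FBgn0015519), on the minus strand of chromosome X from 8276200 to 8367169, had 35.2, 30.6 and 54.3 CPM in pum kd heads, against 74.0, 32.2 and 58.3 CPM in control heads. Control replicate 2 stood among the pum kd libraries, and the log2 fold change was -0.45 (95% interval -1.13 to 0.22). It was -0.18 without control replicate 1 and -0.74 without pum kd replicate 3.

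nAChRalpha4 (FBgn0266347, plus strand of 3L from 23206669 to 23287448) is the gene of the redeye mutant, in which flies sleep less. It had 81.2, 71.9 and 118 CPM in pum kd heads, against 146, 65.2 and 116 CPM in control heads. The lowest library of all was a control and the highest was a control, so that the pum kd values lay wholly inside the control range. The log2 fold change was -0.27 (95% interval -0.91 to 0.36), an interval that holds both no change and a level lower by 0.91 on the log2 scale. The log2 fold change moved with single libraries, and was -0.0015 without control replicate 1. It was -0.16 without pum kd replicate 1, -0.10 without pum kd replicate 2 and -0.51 without pum kd replicate 3.

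nAChRalpha5, nAChRalpha6 and nAChRalpha7 form the branch that most resembles the vertebrate alpha7 subunit. nAChRalpha5 (FBgn0028875, plus strand of 2L from 14040170 to 14094401) had 187, 179 and 274 CPM in pum kd heads, against 340, 154 and 273 CPM in control heads. Its pum kd values also lay inside the control range, with pum kd replicate 3 beside control replicate 3. The log2 fold change was -0.26 (95% interval -0.89 to 0.37). It was -0.00097 without control replicate 1 and -0.49 without control replicate 2. nAChRalpha6 (FBgn0032151, minus strand of 2L from 9793317 to 9886250), the target of spinosad, had 139, 155 and 183 CPM in pum kd heads, against 321, 131 and 251 CPM in control heads. This was the subunit with the lowest fitted log2 fold change, -0.56 (95% interval -1.20 to 0.07, unadjusted p = 0.0778, edgeR's quasi-likelihood test), and also the one whose control libraries differed most, the highest being 2.44 times the lowest. Its log2 fold change was -0.27 without control replicate 1 and -0.81 without control replicate 2. nAChRalpha7 (FBgn0086778, minus strand of X from 19327075 to 19348447), needed for the escape response that the giant fibre drives, had 181, 188 and 269 CPM in pum kd heads, against 376, 223 and 296 CPM in control heads. Only pum kd replicate 3 stood above the lowest control library, and the log2 fold change was -0.49 (95% interval -1.01 to 0.04, unadjusted p = 0.065).

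The beta subunits lack the paired cysteines and take part in receptors through the other face of the binding site. nAChRbeta1 (FBgn0000038, plus strand of 3L from 4429349 to 4435993), a partner in many insect receptors and a target of neonicotinoid action, had 253, 266 and 356 CPM in pum kd heads, against 425, 302 and 386 CPM in control heads. Its log2 fold change was -0.35 (95% interval -0.80 to 0.11), and only pum kd replicate 3 stood above the lowest control library. nAChRbeta2 (FBgn0004118, minus strand of 3R from 24509228 to 24515106) had 43.6, 43.0 and 53.1 CPM in pum kd heads, against 59.5, 56.7 and 59.6 CPM in control heads. It was the 1 subunit of 10 whose genotypes did not overlap, against 4.95% of all genes tested with every pum kd library below every control library and 10.3% not overlapping in either direction. Its log2 fold change was -0.33 ± 0.16 (SE, 95% interval -0.68 to 0.02), with an unadjusted p of 0.0612 in edgeR's quasi-likelihood test and an adjusted p of 0.993. nAChRbeta3 (FBgn0031261, plus strand of 2L from 545129 to 547096), the most divergent subunit, had 35.3, 31.9 and 22.0 CPM in pum kd heads, against 36.6, 39.0 and 34.2 CPM in control heads. Here pum kd replicate 3 was the lowest library, whereas it was the highest pum kd library for the other 9 subunits, and the log2 fold change was -0.30 (95% interval -0.75 to 0.15).

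**Figure D2:**
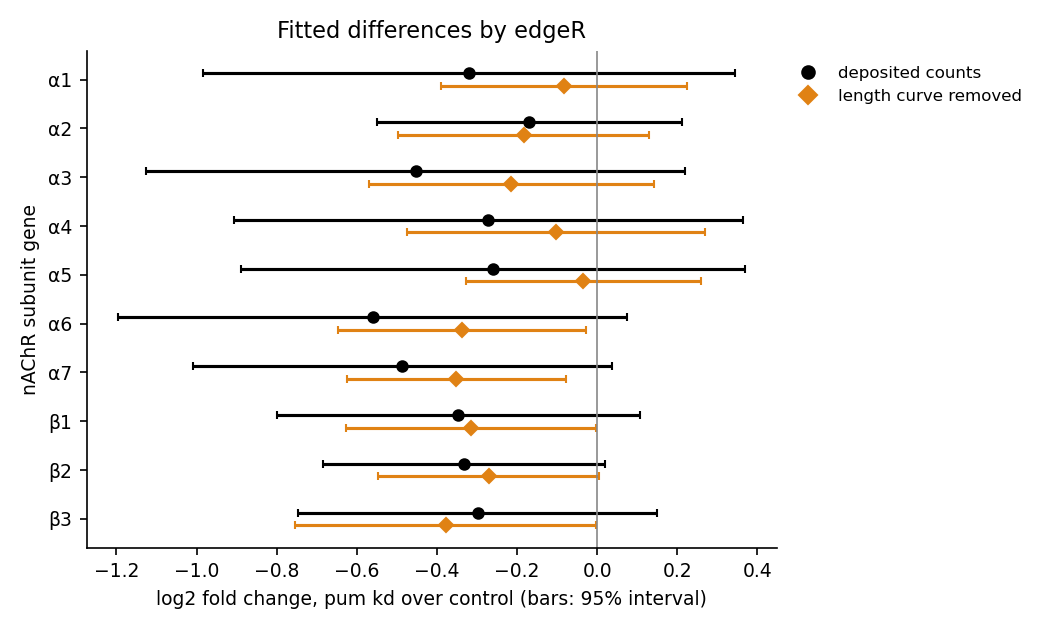
Fitted log2 fold change of pum kd over control for each subunit in edgeR, with 95% intervals, as fitted and with a curve of gene length removed. All 10 estimates lie below 0 in both fits, and in the first every interval includes 0.

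The annotation bears on how firmly some of these counts can be read. The 4 exon blocks of nAChRbeta3, 1532 bases in all, lie wholly within exons of Ets21C, a transcription factor gene on the opposite strand, so that reads of nAChRbeta3 and Ets21C can be separated only by strand. Ets21C had 6.39, 2.80 and 27.6 CPM in pum kd heads, against 9.79, 8.65 and 7.44 CPM in control heads. The library with the most Ets21C, pum kd replicate 3, was the one with the least nAChRbeta3, and the part of this overlap in the nAChRbeta3 value was not tested. The libraries were stranded, the strand setting of the counting is not given in the sources used here, and of 147 genes whose exons lie wholly within exons on the other strand, 100 had at least 10 counts over the 6 libraries. nAChRalpha3 shares 251 exon bases with CG1636 on the opposite strand, a small part of its 10506 exon bases, and nAChRalpha4 shares 247 with lncRNA:CR46475, also on the opposite strand. The other 7 subunit genes share no exon bases with another annotated gene. nAChRalpha1, nAChRalpha2 and nAChRbeta2 lie together within 121211 bases of 3R. The 3 neighbours did not share a profile, since control replicate 2 was the lowest library but one for nAChRalpha1, whereas its value was near the other control values for nAChRalpha2 and nAChRbeta2.

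The libraries differed in a way that followed gene length. The 6 subunits with more than 5 kb of exon (nAChRalpha1 and nAChRalpha3 to nAChRalpha7) had a highest control value 1.68 to 2.44 times the lowest, and the 4 shorter ones (nAChRalpha2 and the 3 beta subunits) 1.05 to 1.41 times. Control replicate 2 lay below the mean of control replicates 1 and 3 by 0.58 to 1.11 on the log2 scale for the 6 longer subunits, and its difference lay between -0.42 and 0.14 for the 4 shorter ones. Over the 10 subunits the Spearman rho of this difference with exon length was -0.89, and over 10642 genes it was -0.51. Both are descriptions across genes, which share the same libraries and are not independent replicates. With the genes divided by exon length into 5 classes of equal size, the median difference of control replicate 2 was 0.49 in the shortest class (median 0.732 kb) and -0.51 in the longest (median 5.71 kb), and the median log2 fold change of pum kd over control was 0.090 in the shortest and -0.16 in the longest. Other libraries differed with length too. As the median log2 deviation from the mean of the 6 libraries, control replicate 2 went from 0.28 in the shortest class to -0.27 in the longest. On this measure pum kd replicate 1 went from 0.34 to -0.27, and control replicate 1 the other way, from -0.30 to 0.35. Pum kd replicate 2 went from 0.02 to -0.05, pum kd replicate 3 from -0.08 to 0.11 and control replicate 3 from -0.05 to 0.15. The log2 fold change of pum kd over control had a rho with exon length of -0.24 over the 10 subunits and of -0.27 over all genes, and what made the libraries differ with length was not tested.

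With a smooth curve of gene length removed from each library, the fitted level remained lower in pum kd heads for 10 of 10 subunits, against 54.7% of genes, with a median log2 fold change of -0.24, against -0.03 over all genes. In that fit edgeR's quasi-likelihood test called 0 of 10 subunits after adjustment, 4 of 10 had an unadjusted p under 0.05 against 7.76% of genes, and 3 of 10 (nAChRalpha7, nAChRbeta2 and nAChRbeta3) did not overlap against 7.67% of genes. The log2 fold changes ran without a gap from -0.38 for nAChRbeta3, -0.35 for nAChRalpha7, -0.34 for nAChRalpha6 and -0.32 for nAChRbeta1, through -0.27 for nAChRbeta2, -0.21 for nAChRalpha3 and -0.18 for nAChRalpha2, to -0.10 for nAChRalpha4, -0.08 for nAChRalpha1 and -0.03 for nAChRalpha5. The lowest adjusted p was 0.435, for nAChRalpha7 in edgeR's test.

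**Figure D3:**
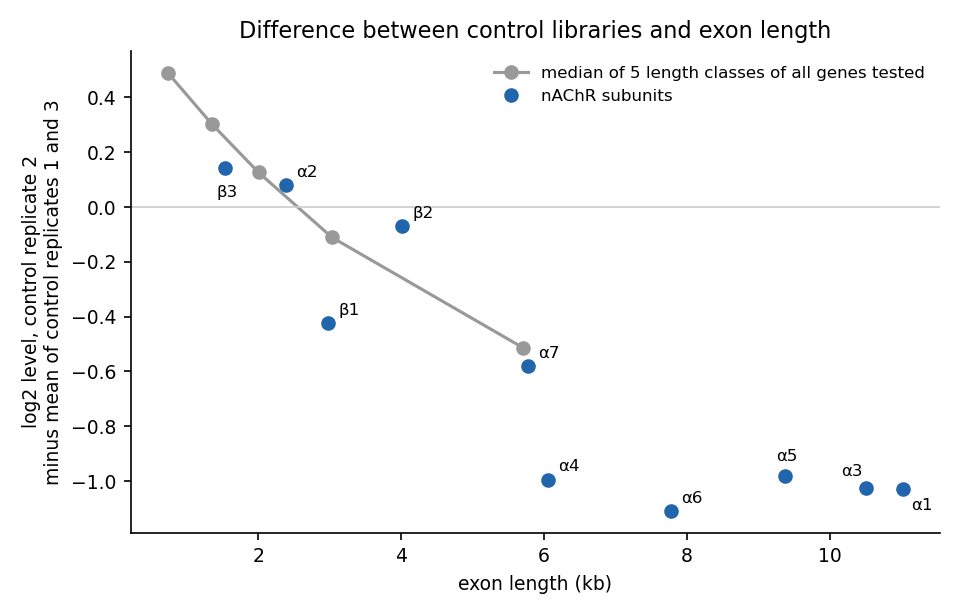
Exon length in kb against the log2 level of control replicate 2 minus the mean of control replicates 1 and 3, for the 10 subunits (named blue points) and as the median of each of 5 length classes of all genes tested (grey, joined by lines). The subunits with more than 5 kb of exon lie at -0.58 or below and the shorter ones at -0.42 or above.

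Summed over the 10 subunits, the level was 1052, 1089 and 1475 CPM in pum kd heads, against 1959, 1114 and 1620 CPM in control heads, a ratio of means of 0.771. The sum in control replicate 2 stood between those of pum kd replicates 2 and 3, so the genotypes overlapped. A list of 9 pan-neuronal genes, which mark neurons of every transmitter, had sums of 4056, 4875 and 5446 CPM in pum kd heads, against 6949, 3946 and 5933 CPM in control heads. All 9 had a lower fitted level in pum kd heads, 0 of 9 were called, and their median log2 fold change was -0.23. Single libraries weighed on this, since the median was -0.03 with 6 of 9 lower without control replicate 1, and -0.10 with 7 of 9 lower without pum kd replicate 1. Their median exon length was 9.12 kb, longer than the 5.91 kb of the subunits. With the length curve removed the pan-neuronal median was -0.05 with 7 of 9 lower, against -0.24 with 10 of 10 lower for the subunits. The part of the amount of neuronal RNA in the subunit values was not tested.

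Divided by the pan-neuronal sum of the same library, the summed subunit level was 0.259, 0.223 and 0.271 in pum kd heads, against 0.282, 0.282 and 0.273 in control heads. The genotypes then did not overlap, but pum kd replicate 3 and control replicate 3 differed little, and the ratio of means was 0.900. Taken one at a time, 10 of 10 subunits had a lower mean relative to the pan-neuronal genes, against 29.2% of all genes tested, with a median log2 ratio of -0.13 and a range of -0.29 to -0.01. The 1 subunit whose genotypes did not overlap on this scale was nAChRalpha7, against 1.66% of genes. nAChRbeta2, which did not overlap in CPM, did so here, since control replicate 1 was its lowest library relative to the pan-neuronal genes. This scale was added for single subunits after the data were seen. The pan-neuronal genes are longer than most subunits, so it does not remove the length difference between the libraries. On it control replicate 2 was the highest library for nAChRalpha2, nAChRalpha7 and the beta subunits, and the lowest control library for the others. The part of length in these ratios was not tested.

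The subunits differed far more from each other than the genotypes did. Per kilobase of exon, nAChRbeta1 was the most abundant at 98.1 ± 18.8 CPM per kb in pum kd heads and 125 ± 21.1 CPM per kb in control heads (SD, n = 3 each). nAChRalpha7 came next at 36.8 ± 8.41 CPM per kb in pum kd heads and 51.6 ± 13.2 CPM per kb in control heads, and the ranges of these neighbours over the 6 libraries did not overlap. At the other end nAChRalpha3 had 3.81 ± 1.19 CPM per kb in pum kd heads and 5.22 ± 2.01 CPM per kb in control heads, and nAChRalpha1 had 6.59 ± 1.89 CPM per kb in pum kd heads and 8.23 ± 3.10 CPM per kb in control heads. Ranks 1, 2, 9 and 10 were held by nAChRbeta1, nAChRalpha7, nAChRalpha1 and nAChRalpha3 in every library of both genotypes.

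Between these ends the order was loose. nAChRalpha6 (25.3 CPM per kb over the 6 libraries) and nAChRalpha5 (25.0) kept their order in 4 of 6 libraries, and nAChRalpha2 (21.7) was above nAChRbeta3 (21.7) in 2 of 6. nAChRalpha4 (16.5) was above nAChRbeta2 (13.1) in 5 of 6, and these neighbours overlapped in range. nAChRalpha7 was above nAChRalpha6, nAChRbeta2 above nAChRalpha1 (7.41) and nAChRalpha1 above nAChRalpha3 (4.51) in 6 of 6, although the ranges of each pair over libraries overlapped. Among all genes tested, 94.4% were below nAChRbeta1 per kb of exon and 29.6% were below nAChRalpha3. With the longest transcript in place of the exon union, the order was the same for all 10 subunits, and with the longest coding sequence 5 subunits kept their rank, nAChRbeta1, nAChRalpha7, nAChRalpha6 and nAChRalpha5 still leading. Without a length correction 2 kept their rank, with nAChRbeta1 and nAChRalpha7 still first.

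**Figure D4:**
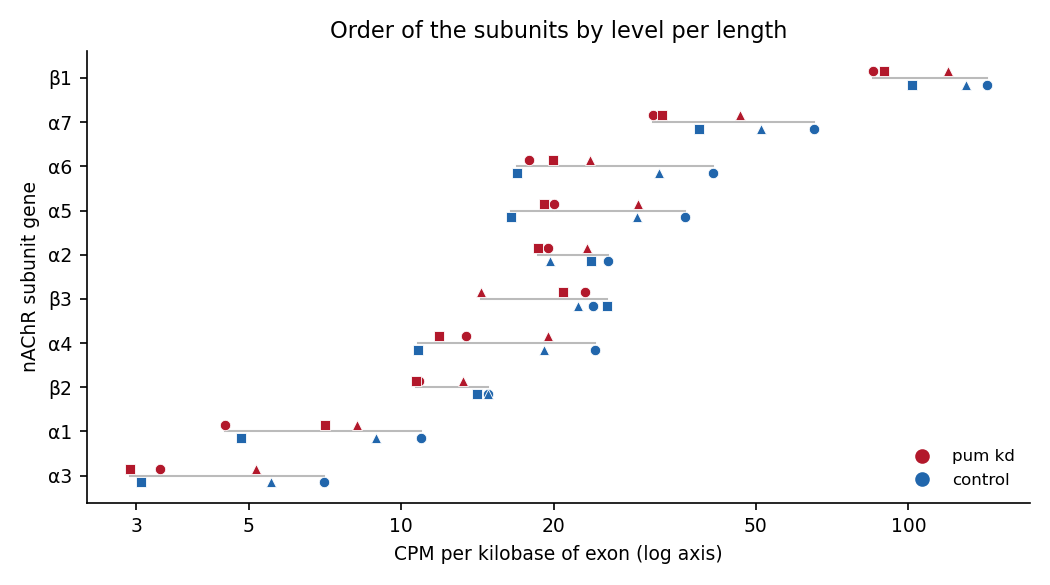
Level per kb of exon of each subunit in CPM per kb (log axis), ordered by the mean over the 6 libraries, with pum kd libraries above the line and control libraries below it; circles, squares and triangles are replicates 1, 2 and 3, and the grey line spans all 6 libraries. nAChRbeta1 stands apart from the other subunits, and the ranges of neighbours from rank 2 to rank 10 overlap.

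The make-up of the family was alike in both genotypes. nAChRbeta1 held 37.2%, 38.4% and 39.5% of the summed level per kb in pum kd heads, against 36.5%, 39.7% and 39.0% in control heads. The 3 beta subunits together held 50.9% ± 1.89 in pum kd heads and 50.6% ± 4.47 in control heads (SD, n = 3 each). This share depends on the length used, and with the longest coding sequence it was 34.7% ± 1.39 in pum kd heads and 34.4% ± 4.91 in control heads, and without a length correction 30.7% ± 1.29 in pum kd heads and 30.6% ± 4.64 in control heads. The share of nAChRbeta3 varied most, at 10.1%, 8.94% and 4.75% in pum kd heads, against 6.10%, 9.97% and 6.71% in control heads. For all 10 subunits the shares in pum kd and control heads overlapped.

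Genes that make, store and clear acetylcholine were not called either. ChAT, which makes acetylcholine, had 82.9, 92.8 and 89.2 CPM in pum kd heads, against 141, 73.1 and 100 CPM in control heads, and VAChT, which loads it into vesicles, had 149, 196 and 190 CPM in pum kd heads, against 296, 132 and 223 CPM in control heads. For both genes control replicate 1 was the highest library and control replicate 2 the lowest, as for nAChRalpha4, nAChRalpha5 and nAChRalpha6. ChT, the choline transporter gene, and Ace, which encodes acetylcholinesterase, had log2 fold changes of -0.28 and -0.18. Of these 4 genes 0 were called and 4 had a lower fitted level, with a median log2 fold change of -0.26. That direction was not kept without control replicate 1, where the median was 0.0085 and 1 of 4 was lower. Without pum kd replicate 1 the median was -0.11 with 4 of 4 lower. With the length curve removed it was -0.11 with 3 of 4 lower. The muscarinic receptors, which signal through G proteins in place of a pore, had log2 fold changes of -0.21 (mAChR-A) and -0.40 (mAChR-B), 0 of 2 tested were called and 1 of 2 was lower without control replicate 1, and mAChR-C had 13 counts in pum kd replicate 3 and 0 counts in the other 5 libraries.

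Of 4 genes known to act on nAChR assembly or function, 0 were called and 3 had a lower fitted level, with a median log2 fold change of -0.08. RIC-3, an assembly chaperone, had 167 ± 19.7 CPM in pum kd heads and 185 ± 10.9 CPM in control heads. Unc50 and Tmx3, both tied to receptor assembly or transport, had log2 fold changes of 0.21 and -0.02. The most abundant of the 4 was qvr, the sleepless gene, whose Ly6-type protein acts on nAChRs and on the potassium channel Shaker in sleep control. It had 455, 514 and 722 CPM in pum kd heads, against 829, 493 and 701 CPM in control heads, with overlap of the genotypes and a log2 fold change of -0.26.

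Among 12 genes of the other Cys-loop receptors, 10 were tested, 0 were called, 6 had a lower and 4 a higher fitted level, and the median log2 fold change was -0.18, or -0.02 without control replicate 1. The gene with the lowest p was ort, the histamine-gated chloride channel that second-order visual neurons use to read photoreceptors, with 38.6, 38.2 and 41.6 CPM in pum kd heads, against 23.4, 27.6 and 27.8 CPM in control heads. Its genotypes did not overlap and its log2 fold change was 0.59 ± 0.17 (SE), in the opposite direction to the subunits, but its adjusted p was 0.514 in edgeR's quasi-likelihood test. The 2 lowest p-values of this list were those of ort and CG8916, whose log2 fold change was -0.52. The ionotropic glutamate receptor genes had a median log2 fold change of -0.13, with 6 of 7 lower and 0 called. For the markers of other cells in the head, the medians were -0.02 for photoreceptors (8 genes), 0.05 for glia (6), 0.25 for fat body (6) and -0.19 for muscle (6), with 0 called in each list by edgeR's quasi-likelihood test. The fat body median rests partly on genes of very low level. Over the libraries Lsp2 had 0.38 to 2.5 CPM, Fbp1 0 to 0.94 CPM and Yp1 0 to 5.6 CPM. For the summed level of the fat body list, the ratio of means of pum kd over control was 1.01. The glial marker with the lowest p was alrm, a gene of astrocyte-like glia, with 71.3, 62.9 and 57.4 CPM in pum kd heads, against 32.4, 32.4 and 34.0 CPM in control heads. Its genotypes did not overlap, and its log2 fold change was 0.95 ± 0.16 (SE) with an adjusted p of 0.070 in that test. It passed the threshold with DESeq2, with no filter, after ComBat-seq, with the length curve removed, with limma and without control replicate 2. After ComBat-seq, DESeq2 also called 1 of 6 fat body markers and 1 of 12 other Cys-loop receptor genes. In the other direction, the muscle marker Act88F had 3.81, 2.22 and 2.53 CPM in pum kd heads, against 5.20, 4.96 and 6.77 CPM in control heads. Its genotypes did not overlap, with a log2 fold change of -0.98 and an adjusted p of 0.834 in edgeR's quasi-likelihood test. The photoreceptor marker inaD was also lower in every pum kd library, with a log2 fold change of -0.12.

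**Figure D5:**
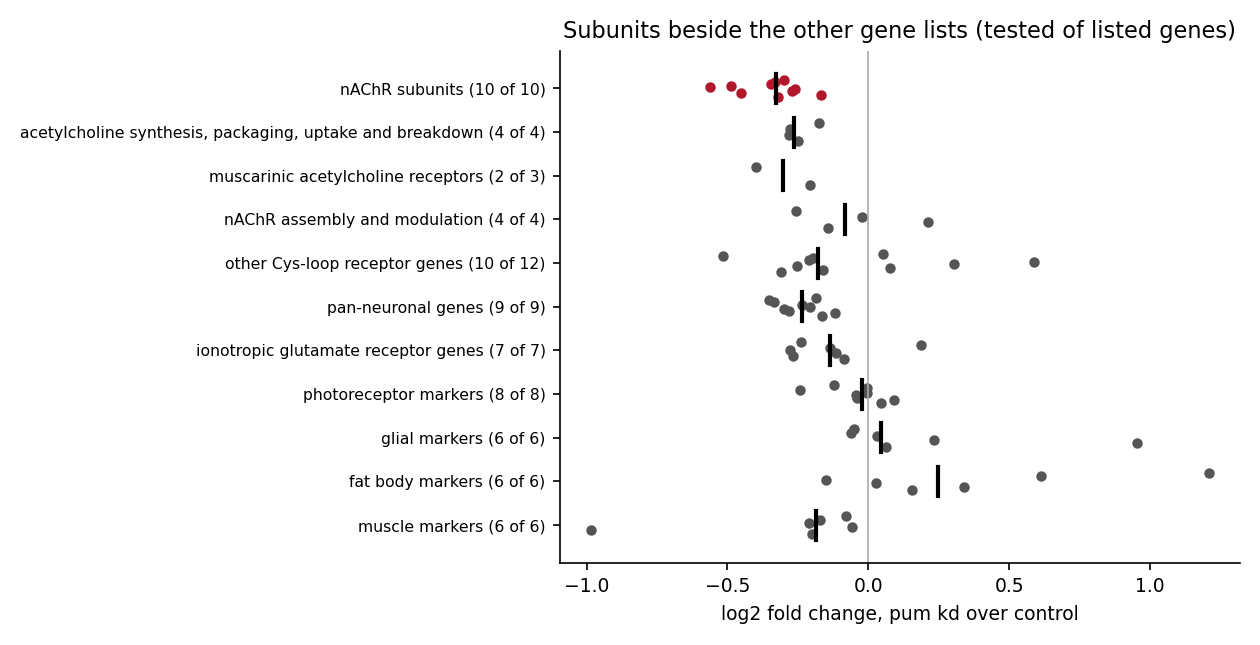
Fitted log2 fold changes of pum kd over control in edgeR for each gene of the nAChR subunits and of the other gene lists, with a bar at the median of each list. No gene of these lists was called, and the nAChR subunits have a median of -0.33, beside -0.30 for the muscarinic receptors and -0.26 for the acetylcholine genes.

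The genes whose levels followed the mean log2 CPM of the 10 subunits most closely over the 6 libraries were Gycbeta100B, gce, dpr4, CG17698 and osp, with Pearson r of 0.993 to 0.997 among 10686 genes compared. Of all genes compared, 214 had an r of at least 0.95. The closest, Gycbeta100B, a subunit of guanylyl cyclase, had 109, 108 and 131 CPM in pum kd heads, against 158, 113 and 137 CPM in control heads. gce, which encodes a juvenile hormone receptor, had 76.1, 79.2 and 91.7 CPM in pum kd heads, against 117, 77.0 and 99.8 CPM in control heads. In both, control replicate 1 was the highest library, and neither was called (adjusted p = 0.993 in edgeR's test for each).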

How the data were processed

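Poly-A RNA of male heads was sequenced as stranded libraries. The authors checked reads with FastQC 0.12.1, used Trimmomatic 0.39 for trimming and STAR 2.7.11b for alignment to dm6 and for quantification. They deposited raw counts per gene. The annotation and strand setting of the counting are not given in the sources used here. The authors also deposited a normalized signal (counts after ComBat-seq divided by DESeq2 size factors) with their own fold changes and p-values, and those comparison columns were not used. Rows naming no gene, 11.5% to 14.2% of a library, were left out, and 0 columns of library values stayed unused. Of 17807 genes, 17710 matched the annotation of Ensembl release 115, which gave positions, exon lengths and names.

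The quasi-likelihood test of edgeR 4.0.16 (R 4.3.3) was run on the counts with TMM scaling after filterByExpr, and p-values were adjusted over all genes tested by the method of Benjamini and Hochberg, with calls at an adjusted p under 0.05. All calls also passed an absolute log2 fold change of 1. The script was tested on simulated data. Log2 CPM used a prior count of 2. Intervals are 95% intervals of the fit. Each library pair of a genotype differed beyond sampling noise. The members and gene lists were chosen with earlier results of these data known. Named were all subunits, pum, all genes of the acetylcholine, muscarinic and assembly lists, the called genes and the 2 lowest p-values of other lists where shown, the 5 genes most like the subunits, and overlapping genes. Fat body markers of very low level were also named.

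Alternatives were DESeq2 1.42.0 (under its own filter and on the genes edgeR tested), RLE size factors, other filters, a robust dispersion, a replicate block, batch terms, ComBat-seq (sva 3.50.0), limma 3.58.1 (pseudocount 1) on the values the authors had normalized, a length curve (loess span 0.3), other length measures and leaving out each library. The division into 2 batches (control replicates 1 and 2 with pum kd replicate 1, and the rest) was found earlier and here gave back 100% of the authors' normalized values.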

Additional observations from a re-analysis of the deposited data

How the results depend on the processing

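No alternative called a subunit, and all 10 kept a lower fitted level in each of the 18 refits. The lowest adjusted p of a subunit was 0.0780, for nAChRbeta2 with ComBat-seq followed by DESeq2. The count over all genes, 11, was 74 with DESeq2 under its own filter, 92 with DESeq2 on the genes edgeR tested (added after the data were seen), 82 with no filter, 35 and 374 with ComBat-seq followed by edgeR and by DESeq2, 49 with limma on the authors' normalized values, 31 with the length curve removed, and between 1 (control replicate 3 left out) and 32 (control replicate 2 left out) when single libraries were omitted. Without control replicate 2 the median log2 fold change of the subunits was -0.50 and 7 of 10 had an unadjusted p under 0.05, against 12.8% of genes, and without control replicate 1 the median was -0.21. Without pum kd replicate 3 the median was -0.51 and 3 of 10 had such a p, against 5.78% of genes. After ComBat-seq 4 of 10 had one with DESeq2, against 11.8% of genes, and 3 of 10 with edgeR, against 12.7%. With limma it was 3 of 10, against 13.1%. It was 0 of 10 in the main fit, with RLE size factors, with the batch term and without control replicate 1. The subunits keeping their rank per kb numbered 5 with the coding length and 2 with no length correction. Within batch 2 (2 pum kd libraries, 1 control) the log2 ratio of nAChRalpha2 was 0.092, against -0.34 within batch 1 (1 and 2), and the other 9 were negative in both. The cause was not tested. Deviations from the group means correlated at -0.09, -0.02 and 0.01 between libraries of the same replicate number. Between unlike numbers they correlated at -0.05 to 0.06, so no pairing was seen, and with so few libraries none can be excluded. A replicate block gave 14 genes and 0 subunits called.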
